A study of Mus musculus with 46 samples.

Results

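The elements described here are 64 candidate cis-regulatory elements (cCREs), the DNA fragments picked by the study as possible enhancers, from the distal end of the Tfcp2l1 locus on mouse chromosome 1. They are the cCREs of the Tfcp2l1 library that start at position 119850000 or beyond, leaving out E203, E251, E286 and E301. They make up 64 of the 232 cCREs of that library and of 423 in the 3 Upstream libraries of the series. The study cloned such fragments, alone or as pairs, upstream of a barcoded reporter and measured reporter RNA in E14TG2a, an established line of mouse embryonic stem cells kept in 2i+LIF medium. All values come from 1 group, 3 biological replicates of wild-type E14TG2a cells nucleofected with the Tfcp2l1 library mix and harvested after 24 h. There was no treatment and no genotype contrast, and the comparisons are between constructs within each replicate. The replicates received the same plasmid pool, so their spread does not include how the plasmids that carry 1 construct differ. The reporters are transient plasmids, so a fragment is read outside its chromosome and native distance.

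Enhancers are stretches of DNA that bind transcription factors and raise transcription from a promoter, and silencers lower it. Tfcp2l1, which names the locus, encodes a transcription factor of the naive pluripotency network. In a plasmid reporter, a fragment may also start transcription by itself, and many enhancers do so at a low level. The stretch covered here runs past Cfap221 (a cilium protein), Sctr (the secretin receptor), Steap3 (an endosomal metalloreductase for iron), C1ql2 (a secreted C1q-like synaptic protein) and Marco (a macrophage scavenger receptor).

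The members lay between positions 119854864 and 120550161 of the mm10 build, and start and end of each were 450 bp apart. By RefSeq annotation of the same assembly, 28 lay within a gene, 35 lay between genes, and E264 crossed the edge of Steap3. Of the 64, 20 lay in or across a protein-coding gene. Steap3 held 8 of them, and Cfap221, Sctr and 3110009E18Rik held 4 each. The noncoding genes Gm41937, Gm41938 and Gm28209 held 5, 3 and 1. Exon and intron boundaries were not used here. E271 was the member that overlapped the 250 bases before an annotated start, one that lies inside Steap3. The overlap, chr1:120265287-120265469 on the minus strand (GRCm38.p6, RefSeq), is shown with the bases before the start that 4 of the promoter fragments hold, since the results below turn on members placed in front of them. These are Tmem177 (chr1:119913184-119913433, minus strand), Tmem37 (chr1:120073875-120074030, minus strand), C1ql2 (chr1:120340332-120340581, plus strand) and Marco (chr1:120505025-120505274, minus strand). Capitals mark a match to a motif searched on both strands.
E271 Steap3: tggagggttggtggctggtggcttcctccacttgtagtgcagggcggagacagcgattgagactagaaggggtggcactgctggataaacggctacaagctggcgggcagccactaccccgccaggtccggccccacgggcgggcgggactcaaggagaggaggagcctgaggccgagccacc
Tmem177: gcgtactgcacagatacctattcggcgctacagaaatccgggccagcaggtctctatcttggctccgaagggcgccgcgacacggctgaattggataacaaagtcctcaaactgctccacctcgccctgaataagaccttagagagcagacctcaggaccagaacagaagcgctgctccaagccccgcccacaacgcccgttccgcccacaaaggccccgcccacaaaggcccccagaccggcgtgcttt
Tmem37: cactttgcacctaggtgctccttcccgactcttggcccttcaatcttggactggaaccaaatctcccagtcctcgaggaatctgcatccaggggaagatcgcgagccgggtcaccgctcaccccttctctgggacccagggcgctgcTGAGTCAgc
C1ql2: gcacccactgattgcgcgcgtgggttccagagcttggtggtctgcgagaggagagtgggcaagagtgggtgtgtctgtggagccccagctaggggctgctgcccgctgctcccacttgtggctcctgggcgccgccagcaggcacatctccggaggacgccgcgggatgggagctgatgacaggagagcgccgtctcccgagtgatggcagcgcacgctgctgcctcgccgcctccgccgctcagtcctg
Marco: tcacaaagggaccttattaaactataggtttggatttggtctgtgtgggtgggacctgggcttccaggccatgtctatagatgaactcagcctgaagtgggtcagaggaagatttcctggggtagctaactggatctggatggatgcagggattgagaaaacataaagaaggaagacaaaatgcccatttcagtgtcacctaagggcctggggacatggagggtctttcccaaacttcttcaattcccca

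The single match among these 5 stretches was AP-1 (TGANTCA) before Tmem37, a motif found in 6.73% of 32536 promoter windows of 250 bases. The other 12 motifs searched, among them octamer ATGCAAAT, KLF CCACACCC, ESRRB TCAAGGTCA, ETS CCGGAAGT, E-box CACGTG and the TATA box (TATAAA), had no match in them. GC content was 66.1% in the E271 stretch, 60.3% before Tmem37, 60.0% before Tmem177, 68.8% before C1ql2 and 47.6% before Marco, against a median of 52.4% over all windows. A match describes letters and not a bound site.

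The library held 1766 constructs with a member in front of a promoter. It also held 13895 cCRE pairs with a member first and 13536 with a member second, of which 4168 had members in both places. Activity is the reporter RNA over plasmid input of a construct, a ratio on a linear scale whose unit of 1 is not given in the sources used here. Over the 14217 constructs that had a member first and no replicate at 0, log2 activity correlated between pairs of replicates at r from 0.89 to 0.90, across constructs that share fragments and so are not independent. An activity of 0 was listed for 1138 member constructs in replicate 1, 250 in replicate 2 and 345 in replicate 3, and constructs with a 0 were left out of tests. Of the 64 members, 55 had promoter constructs and 46 were measured with at least 3 promoter fragments. No promoter construct was measured for E213, E230, E247, E252, E254, E274, E280, E284 and E303. E216, E231, E264, E277, E278, E288, E293, E302 and E304 had too few for an average. The depth behind a single construct is unknown.

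Alone, most members were weak. The boost over an empty reporter could not be set, since the labels do not explain the empty constructs. With both positions empty, activity was 0.0460, 0.0658 and 0.0654 in the 3 replicates. An empty label among the fragments alone read 0.161, 0.186 and 0.190. The first reading lies below the median single cCRE and the second above it. Each single cCRE was therefore compared with the median single cCRE of the library in the same replicate (0.0812, 0.101 and 0.105), with limma and Benjamini-Hochberg adjustment over all 419 oriented single cCREs at 0.05. Of 115 oriented members tested, 79 (68.7%) differed from that median, against 75.7% of the library, with 43 higher and 36 lower. These shares of 37.4% and 31.3% stand beside 40.3% and 35.3% over all 419 single cCREs. Without replicate 2, 21 were lower. Median log2 activity was -3.36 for members and -3.41 for the 304 other single cCREs. An activity above 2 (log2 above 1) was reached by 2 of 115 oriented members and by 12 of 304 others.

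E294, which lies 12606 bp from Marco between genes, was the most active member in both orientations. In the plus orientation its activity was 2.83, 2.14 and 2.04 in replicates 1, 2 and 3, and in the minus orientation 2.92, 2.32 and 1.93. This was 4.60 ± 0.45 (SD, n = 3) and 4.63 ± 0.49 on the log2 scale above the median single cCRE, with limma adjusted p of 0.000251 and 0.000272. Every replicate of E294 lay above every replicate of every other member alone, except replicate 3 of E302 in the minus orientation. E302, near the end of the locus, read 1.44, 1.46 and 2.55 in that orientation and 0.172, 0.273 and 0.339 in the other. E211, 14743 bp from the pseudogene Gm29658, read 1.13, 1.44 and 1.38 in the minus and 0.799, 0.816 and 0.740 in the plus orientation. E249, within Gm41938, read 0.977, 1.10 and 1.22 in the minus orientation and 0.208, 0.216 and 0.248 in the plus. E211 and E249 in the minus orientation stood 3.78 ± 0.06 and 3.53 ± 0.07 (log2, n = 3) above the median, with limma adjusted p of 9.63e-05 and 0.000113. E302 in the minus orientation stood 4.20 ± 0.38 above it, with limma adjusted p = 0.000239.

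At the low end, E278 in the minus orientation read 0.00806, 0.0216 and 0.0109, which was -2.94 ± 0.62 against the median single cCRE (limma adjusted p = 0.0015). E303 in the plus orientation read 0.0113, 0.0395 and 0.0305, or -2.0 ± 0.77 (limma adjusted p = 0.00798). E216 in the plus orientation read 0.00814, 0.0450 and 0.0448, or -1.90 ± 1.22 (limma adjusted p = 0.0294, and 0.072 without replicate 2). These lowest members had their lowest value in replicate 1, the replicate with most zeros.

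Many members differed in activity between orientations. Over 54 members measured alone in both orientations without a 0, the orientations differed by a median of 0.87 (log2) and by more than 1 in 24 members. Their log2 activities correlated at r = 0.57 across these members, a description over fragments read in the same 3 cultures. In the comparison with the median, 13 members were higher in both orientations, 5 were lower in both, and 8 were higher in one and lower in the other. The 13 were E209, E211, E242, E245, E249, E261, E267, E271, E281, E289, E294, E297 and E302. The largest gap was in E231, at 2.96.

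In front of promoters, the effect of a cCRE was read as the boost index. It divides the activity of a construct by the median of all constructs that end in that oriented promoter, within a replicate, and takes log2, so 0 is the typical cCRE and not the promoter alone. The promoter fragments numbered 21. Of these, 8 were active, with basal log2 activity from -1.98 to 3.85, and 13 were weak, from -5.09 to -2.64. The mean index over promoters, in which each construct counts once, so that a promoter measured in more arrangements weighs more, was tested against 0 with limma over all 169 Tfcp2l1 cCREs with at least 3 promoter fragments. Of 46 members, 29 (63%) were called, against 66.9% of all 169. These were 13 higher and 16 lower, or 28.3% and 34.8%, against 32% and 34.9% of all 169. The median member index was 0.0019 and that of all cCREs -0.05. A mean index over 1 was reached by 5 of 46 members and by 29 of the 123 other cCREs. None of the 46 members lay below -1, where 7 of the others did. Constructs with a 0 entered the basal median but not these means, so a low mean can read too high. Such constructs were 9 of 45 for E291 and 7 of 41 for E217, against 0 of 64 for E294.

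E294 had the highest mean index, with 3.79, 3.01 and 2.88 in replicates 1, 2 and 3 over 21 promoter fragments. Its mean of 3.23 ± 0.49 (SD, n = 3) had a limma adjusted p of 2.69e-06. The mean index of E294 was above 0 with all 21 promoter fragments. It ran from 0.23 with Nifk, over 3 constructs, to 5.72 with Tmem37, a single construct. With Tmem37 in the minus orientation, the promoter read 0.0540, 0.0671 and 0.0599 alone and 3.93, 4.19 and 2.22 behind E294 in the minus orientation. With C1ql2 in the plus orientation, values rose from 0.0209, 0.0407 and 0.0634 alone to 1.28, 0.769 and 0.755 behind E294 in the plus orientation. With the Ptpn4 fragment in the plus orientation, an active promoter, values went from 6.74, 7.28 and 7.93 to 14.0, 14.1 and 14.5. With the Nifk fragment in the plus orientation, the strongest promoter here, they were 14.8, 17.0 and 17.6 alone and 13.5, 13.9 and 13.8 behind E294. E294 thus separated from the promoter alone in every replicate for the first 3, whereas for Nifk in the plus orientation the values behind E294 were the lower ones. Nifk in the minus orientation instead rose, from 0.613, 0.680 and 0.716 alone to 1.24, 1.42 and 1.51 behind E294 in the plus orientation.

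E211 came next, with 1.99, 2.07 and 2.22 in the 3 replicates over 13 promoter fragments, a mean of 2.09 ± 0.12 over 21 constructs (limma adjusted p = 2.49e-06), or 2.21 with each promoter fragment counted once. It was above 0 with all 13, from 0.49 with P010 in Clasp1 to 4.09 with P012 in Tfcp2l1. Most of these constructs held E211 in the plus orientation, and both orientations were measured with 2 oriented promoters. In front of Tmem177 in the minus orientation, E211 in the plus orientation gave 2.32, 2.29 and 1.67 where the promoter alone gave 0.167, 0.180 and 0.215. E272, within Steap3, had indices of 2.06, 1.75 and 1.95 from 18 constructs with 13 promoter fragments, a mean of 1.92 ± 0.16 (limma adjusted p = 3.36e-06), or 1.73 with each promoter fragment counted once. E272 was measured in the plus orientation only, alone at 0.819, 0.806 and 1.05. Its index ran from 0.10 with Nifk to 3.48 with P012 and was above 0 with all 13. E249 followed with 1.43, 1.14 and 1.18 (mean 1.25 ± 0.16, limma adjusted p = 4.4e-05) and E289, 25577 bp from Gm46154, with 1.22, 1.02 and 1.24 (mean 1.16 ± 0.12, limma adjusted p = 5.55e-05). The mean index of both was above 0 with all 20 of their promoter fragments. For E289 the values with Inhbb (-0.02, -0.27 and 0.51) and C1ql2 (1.31, -0.12 and -0.47) lay on both sides of 0. Each came from a single construct. Single constructs of E249 could also lie below 0, as in the minus orientation with P020 in the plus orientation (-0.84, -0.74 and -0.03).

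The remaining 8 members called higher were E242, E281, E241, E299, E261, E245, E243 and E271, with means from 1.00 down to 0.43. Among the 5 members in Gm41937, 4 were higher (E241, E242, E243 and E245) and E244 was lower, at -0.44 ± 0.13, beside 32% higher of all 169 cCREs. E241 and E242 overlap and are not separate stretches. E244 and E245 lie 428 bp apart. E271, the fragment shown above at the internal Steap3 start, had a mean of 0.43 ± 0.12 over 6 constructs with 4 promoter fragments. It was above 0 with 2 of the 4 and ran from -1.53 with P006 to 1.25 with Ptpn4. With each promoter fragment counted once, a setting added after the data were seen, E271 (0.05, limma adjusted p = 0.753) and E244 (-0.27, limma adjusted p = 0.0638) were not called. The calls of E227 and E292 were also lost in that setting, while E265 was called higher and E260 lower. The mean of E265 then included a single construct with Marco, at 5.71, as 1 of its 13 promoter fragments.

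At the other end, E291 had indices of -0.81, -0.99 and -0.88 over 15 promoter fragments, a mean of -0.89 ± 0.09 (limma adjusted p = 0.000224). It lay below 0 with all but P015. E291 in the plus orientation in front of Tmem177 in the minus orientation read 0.0408, 0.0396 and 0.0862, against 0.167, 0.180 and 0.215 for the promoter alone. In front of Ptpn4 in the plus orientation it read 6.30, 6.29 and 6.99, against 6.74, 7.28 and 7.93. E212 had indices of -0.78, -1.11 and -0.71 (mean -0.87 ± 0.21, limma adjusted p = 0.000528), and E217 had -0.84, -0.88 and -0.64 (mean -0.79 ± 0.12, limma adjusted p = 0.000542). Most constructs of E212 held it in the minus orientation, and both orientations were measured with 2 oriented promoters. E234 and E235, both within Sctr and 2639 bp apart, each averaged -0.64 (SD 0.16 and 0.25, limma adjusted p = 0.00192 and 0.00322). The constructs averaged for E234 all held it in the minus orientation. Alone, E234 lay at 0.25 in that orientation, not called, and at -1.75 in the plus orientation relative to the median single cCRE. The call of E235 was lost (mean -0.27, adjusted p = 0.0571) when constructs of activity under 0.02 were left out. Of the 4 members in Sctr, 3 were lower and E237 was not called, at 0.14 ± 0.03. In Cfap221, E227 was lower, E228 was not called and E230 and E231 were not tested. These counts per gene rest on few fragments and stand beside 32% higher and 34.9% lower of all 169 cCREs. In Steap3, 2 members were higher (E271 and E272), 3 lower (E266, E267 and E269) and 2 not called.

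Neighbouring fragments could differ. E237 and E238 share 112 bp. Over 29 matched constructs with the same orientations and promoters, E237 averaged 0.33 ± 0.04 and E238 -0.50 ± 0.09, a difference of 0.84, 0.71 and 0.96 in the 3 replicates. Alone, E237 was at -0.40 in the plus and 1.21 in the minus orientation relative to the median single cCRE, and E238 at 0.70 and -1.83, the reverse order of orientations. E241 and E242 overlap over most of their length. Over 62 matched constructs they averaged 0.79 ± 0.11 and 0.99 ± 0.07, with E242 higher by 0.15, 0.25 and 0.20. These differences kept their sign in all 3 replicates. E230 and E231, which share 241 bp, and E303 and E304, which share 15 bp, had no matched promoter constructs. E293 ends 127 bp before E294 starts. Its index over 18 second cCREs was -1.37 ± 0.40, and with 2 promoter fragments it averaged 0.64 ± 0.27.

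The boost index over promoter fragments varied within a member by a median SD of 0.82 over the 46 members, from 0.40 for E260 to 1.68 for E265. For the 123 other cCREs the median was 0.90. E294 gave the highest member index with 16 of the 21 promoter fragments. Of the others, E211 was highest with Ralb and Epb41l5, E263 with Nifk, E228 with C1ql2 and E265 with Marco. The values of E228 with C1ql2 (6.13) and of E265 with Marco (5.71) each came from a single construct.

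Set against the promoter alone, 1564 member and promoter constructs were tested with limma among 4945 of the library. Of these, 628 (40.2%) were called, against 43.5% of the library. They comprised 326 higher than their promoter and 302 lower, or 20.8% and 19.3%, where the whole library had 23.8% and 19.7%. The median difference was -0.22 for members and -0.20 for all, so the typical construct with a cCRE read slightly below its promoter alone. E294 was higher in 60 of 63 constructs, E211 in 16 of 21, E272 in 12 of 18, E249 in 34 of 60 and E289 in 24 of 52. E217 was lower in 18 of 33, E212 in 11 of 22, E291 in 16 of 36 and E267 in 17 of 38. None was called higher for E212, E273 and E291, of 22, 46 and 36. The count of member calls fell to 277 (169 higher, 108 lower) without replicate 2 and to 337 (207 higher, 130 lower) without replicate 3. With the median construct as baseline it was 499, of which 358 were higher and 141 lower.

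The largest single rises were picked among pairs called and changed the same way in all 3 replicates. Of the top 5, 3 were seen in 1 of the arrangements measured and not in the others. E295 in the minus orientation in front of Marco in the minus orientation read 4.15, 4.65 and 5.01, where the promoter alone read 0.0221, 0.0586 and 0.0496. The rise was 6.84 (log2, SE 0.39, limma adjusted p = 0.000123). The same 2 fragments in the other orientations did not exceed 0.0761 in any replicate in that order, nor 0.133 with Marco first. E228 in the plus orientation in front of C1ql2 in the plus orientation read 3.34, 3.05 and 3.70 against 0.0209, 0.0407 and 0.0634 (6.47, SE 0.42, limma adjusted p = 0.000167). With C1ql2 first, these fragments stayed at or under 0.204. E299 in the plus orientation in front of P015 in the minus orientation read 2.29, 2.58 and 2.55 against 0.0208, 0.0484 and 0.0450 (6.12, SE 0.36, limma adjusted p = 0.000123). E299 with P015 in the plus orientation stayed at or under 0.0624. Without these constructs, the index averaged -0.02 ± 0.09 over the other 45 constructs of E295, -0.22 ± 0.04 over 29 of E228 and 0.56 ± 0.07 over 33 of E299. The other 2 of the 5 largest rises belonged to E294, with Inhbb in the plus orientation (3.40, 2.55 and 2.33 against 0.0138, 0.0376 and 0.0640) and with P023 in Gm28209. They were 6.40 (SE 0.58, limma adjusted p = 0.000552) and 5.99 (SE 0.82, limma adjusted p = 0.00274). No other arrangement of E294 with either of these promoters was measured. P023 alone read 0.00755, 0.0682 and 0.0349. Against the median construct, the boost index of E294 was 5.56 with Inhbb and 4.33 with P023.

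The 5 largest falls, picked by the same rule, were less firm. E266 in the minus orientation took P006, in Tsn, in the plus orientation from 0.225, 0.263 and 0.263 to 0.0169, 0.0113 and 0.00328 (-4.87, SE 0.62, limma adjusted p = 0.00208). E295 with the same promoter gave 0.00292, 0.0210 and 0.0245 (-4.45, limma adjusted p = 0.0093). P006 alone in that orientation had a log2 activity of -2.0, whereas the median construct with it lay at -4.52. Against that median construct the falls were -2.35 (adjusted p = 0.098) and -1.93 (adjusted p = 0.0552), neither of them called. E267 in the minus orientation with Nifk in the minus orientation read 0.0138, 0.0173 and 0.104 against 0.613, 0.680 and 0.716 (-4.52, limma adjusted p = 0.00694). With E267 in the plus orientation, Nifk read 0.343, 0.182 and 0.360. E266 with P012 in the minus orientation fell by 4.34 (limma adjusted p = 0.00665) and E235 with Marco in the plus orientation fell by 4.30 (limma adjusted p = 0.00557). Leaving out 1 replicate ended the call of 4 of these 5 pairs. The adjusted p was then 0.0501 without replicate 1 and 0.065 without replicate 2 for E267, 0.0507 without replicate 2 and 0.0592 without replicate 3 for E295, 0.0583 without replicate 2 for E266 with P012, and 0.0706 without replicate 3 for E235.

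Behind a member, other cCREs responded in a like order. The mean index over second cCREs takes the median cCRE pair with the same second fragment as basal. Among 52 members, 42 (80.8%) were called by limma, against 87.1% of all 186 cCREs. These were 18 higher and 24 lower, or 34.6% and 46.2%, against 35.5% and 51.6% of all 186 cCREs. The median was -0.15 for members and -0.34 for the 134 others. E294 read 4.37, 3.62 and 3.50 over 174 second cCREs, a mean of 3.83 ± 0.47 (limma adjusted p = 6.19e-08). E272 read 2.72, 2.35 and 2.56 (mean 2.55 ± 0.19, limma adjusted p = 4.23e-08) and E211 1.73, 1.83 and 1.70 (mean 1.75 ± 0.07, limma adjusted p = 1.61e-07). E289 (1.43 ± 0.17, limma adjusted p = 1.24e-06) and E243 (1.21 ± 0.18, limma adjusted p = 4.31e-06) completed the top 5. The lowest were E288 at -1.76 ± 0.47 (limma adjusted p = 8.4e-06), E293 at -1.37 ± 0.40 (limma adjusted p = 1.7e-05) and E278 at -1.35 ± 0.14 (limma adjusted p = 1.47e-06). These 3 had 24, 18 and 15 second cCREs and were not averaged over promoters.

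The promoter and cCRE indices of the members went together, with r = 0.91 and rho = 0.84 over 46 members (r = 0.94 over 123 other cCREs). Both indices come from the same 3 cultures and share the first fragment, so this is a description. Of 13 members called higher over promoters, 11 were higher over cCREs, E271 was not called and E245 was lower. Of 16 called lower over promoters, 12 were lower over cCREs and 4 were not called. E245 averaged 0.58 ± 0.06 over 11 promoters and -0.27 ± 0.08 over 75 cCREs. The SDs are between replicates, and its promoter index was above 0 with 6 of the 11 promoters. That index ran from -0.65 with Marco to 2.72 with Tmem177. E260 differed the other way, with -0.40 ± 0.61 over 8 promoters, not called, and 1.08 ± 0.22 over 55 cCREs. E288 had 2 promoter constructs, of which 1 held a 0 and was left out. The other had an index of 2.00 ± 0.35, a single construct beside the mean of -1.76 over 24 second cCREs.

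Activity alone and the promoter index had r = 0.82 and rho = 0.65 over 46 members, a description over the same 3 cultures. Of the 13 members above the median alone in both orientations, 9 had a higher promoter index. E267 was the exception in direction. Alone it read 0.230, 0.244 and 0.338 in the plus and 0.435, 0.390 and 0.453 in the minus orientation, 1.49 ± 0.21 and 2.16 ± 0.24 above the median single cCRE. Its index was -0.64 ± 0.23 over promoters and -0.86 ± 0.12 over cCREs. E297 read 0.607, 0.577 and 0.661 alone in the plus orientation, with a promoter index of 0.06 ± 0.14. E209 was also higher alone in both orientations, with a promoter index of -0.21 ± 0.04, not called.

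The absolute level of a cCRE pair also rose with the second fragment. When second cCREs were put in 4 groups by activity alone, pairs led by E294 had a median log2 activity of 0.02 in the weakest group, whose second cCREs had a median of -4.83 alone. The median rose to 0.72, 1.40 and 2.29 in the next groups. Over all cCREs as first fragment the medians were -4.11, -3.65, -2.75 and -0.13. Pairs led by E272 ran from -1.43 to 1.55 and those led by E289 from -3.19 to 0.92. E294 lay above the library in each group, with its smallest margin in the strongest group, and E272 and E289 lay above it in the weakest and the strongest.

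Against the second cCRE alone, 12514 pairs led by a member were tested with limma among 39839. Of these, 5971 (47.7%) were called, against 51.4% of the library. They were 3904 higher and 2067 lower, or 31.2% and 16.5%, beside 34% and 17.4% in the library. Lower calls numbered 1296 without replicate 2 and 1250 without replicate 3. E294 was higher in 502 of 520 pairs, E272 in 130 of 149 and E211 in 121 of 167. The largest rise among called pairs was E215 with E091, both in the minus orientation. The pair read 13.7, 13.5 and 14.9 against 0.0699, 0.0495 and 0.0512 for E091 alone (7.97, SE 0.22, limma adjusted p = 3.25e-05). In the same order with 1 fragment turned, these read at most 0.0552, and with E091 first at most 0.131. E215 in the plus orientation with E143 in the minus orientation read 9.82, 8.20 and 9.59 (7.13, SE 0.27, limma adjusted p = 3.25e-05), and E143 pairs in other arrangements read at most 0.164. E215 with E087 read 2.55, 2.76 and 3.24 (7.13, SE 0.35, limma adjusted p = 3.72e-05). E215 averaged -0.08 ± 0.02 over 157 second cCREs, so these 3 pairs stood far from the rest of its constructs. E266 with E251 read 4.21, 4.99 and 5.33 (7.45, SE 0.61), and 0.0214, 0.0856 and 0.0402 with both fragments turned. E245 with E044 read 11.2, 8.42 and 7.33 (7.01, SE 0.26). The number of barcodes behind these constructs is not known.

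The largest falls among called pairs shared second fragments. E244, E268 and E227 with E077 in the plus orientation, which alone read 1.26, 1.41 and 1.57, changed by -7.26 (SE 0.20), -6.22 (SE 0.72) and -5.85 (SE 0.54) on the log2 scale, with limma adjusted p of 3.25e-05, 0.000679 and 0.000262. Activities in these pairs were 0.0106, 0.00851 and 0.00862 for E244, 0.00679, 0.0189 and 0.0523 for E268, and 0.0132, 0.0558 and 0.0199 for E227. Against the median pair with E077 as baseline, E244 fell by 2.35 (adjusted p = 0.0128), E268 fell by 1.32 (adjusted p = 0.129) and E227 by 0.94 (adjusted p = 0.0624), and E268 and E227 were not called. E290 and E212 with E097 in the minus orientation fell by 6.13 (SE 1.02) and 5.65 (SE 0.93), with limma adjusted p of 0.0034 and 0.00318. Against the median pair with E097 they fell by 3.35 (adjusted p = 0.0471) and 2.86 (adjusted p = 0.0382).

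Promoter class set some members apart. The difference between the mean index with weak and with active promoters was called for 6 of 42 members, or 14.3%, against 30.6% of the library. It was higher with weak promoters for 2 and lower for 4, or 4.76% and 9.52%. Over all 160 cCREs tested, 23.8% were higher and 6.88% lower. E294 averaged 4.12 ± 0.71 with 13 weak and 1.93 ± 0.21 with 8 active promoters. Its difference was 2.82, 1.78 and 1.97 in the 3 replicates (mean 2.19 ± 0.55, limma adjusted p = 6.48e-05). E272 averaged 2.44 ± 0.25 with 7 weak and 0.88 ± 0.03 with 6 active promoters (difference 1.56 ± 0.28, limma adjusted p = 0.000177). E290 went the other way, with -1.08 ± 0.48 and -0.06 ± 0.16 (difference -1.03 ± 0.53, limma adjusted p = 0.00658), and without replicate 3 its difference was -0.36 with an adjusted p of 0.364. E245, E269 and E219 were also lower with weak promoters, by means of -0.72, -0.66 and -0.55. With classes taken from the promoter alone, 12 members were higher and 2 lower. With a pseudocount these were 3 and 8, and with low constructs left out 2 and 8. In replicate 1 the basal activity of most weak promoters was lower than in the other 2, for instance -5.34, -3.97 and -4.34 (log2) for Marco in the plus orientation.

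Orientation of the member changed the index for 10 of 30 members with matched promoters (33.3%), against 44% of the library. The plus orientation was higher for 6 and the minus for 4, or 20% and 13.3%, against 27.5% and 16.5% of 91 cCREs. The meaning of plus and minus relative to the genome is not given in the sources used here. E250 had the widest difference, averaging 0.02 ± 0.37 in plus and 2.55 ± 0.18 in minus over 4 oriented promoters. The difference was -3.13, -2.33 and -2.13 in the 3 replicates (mean -2.53 ± 0.53, limma adjusted p = 0.00362). E227 averaged 0.07 ± 0.32 in plus and -1.34 ± 0.33 in minus over 16 oriented promoters (difference 1.41 ± 0.63, limma adjusted p = 0.0148). E289 averaged 0.55 ± 0.22 in plus and 1.64 ± 0.19 in minus over 20 (difference -1.09 ± 0.35, limma adjusted p = 0.0123). E294 averaged 3.48 ± 0.50 and 2.95 ± 0.49, higher in plus by 0.54 ± 0.07 (limma adjusted p = 0.0205). The count of 10 fell to 6 without replicate 2, to 6 without replicate 3 and to 5 with medians over promoters.

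Order in cCRE pairs was tested on the same oriented fragments swapped. Of 45 members, 34 (75.6%) were called, against 80.6% of the library. Of the 45, 21 gave more activity in the first place and 13 in the second, or 46.7% and 28.9%, against 54.8% and 25.8% of 155 cCREs. E245 averaged a log2 activity of -2.20 ± 0.28 as first and -0.68 ± 0.13 as second fragment over 38 pairs. Its difference was -1.71, -1.51 and -1.36 (mean -1.53 ± 0.18, limma adjusted p = 0.00132). E209 averaged -3.18 ± 0.37 as first and -2.04 ± 0.28 as second over 427 pairs (difference -1.14 ± 0.14, limma adjusted p = 0.00132). E271 averaged -2.77 ± 0.50 and -1.60 ± 0.42 over 5 pairs (difference -1.17 ± 0.91, limma adjusted p = 0.0464), and lost the call without replicate 1 (adjusted p = 0.0643), without replicate 3 (0.155) and with medians over partners (0.0829). E243 was the widest in the other direction, with 1.02 ± 0.34 more in the first place (limma adjusted p = 0.00458). E294 gave 1.05 ± 0.19 as first and 1.496 ± 0.20 as second over 337 pairs, higher in second place by 0.45, 0.47 and 0.41. The size of that difference was 0.44 ± 0.03 (limma adjusted p = 0.00218).

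Distance in the genome was described without a test. Over 115 member constructs whose promoter lies within 100 kb, the mean index was 0.26 ± 0.11 (SD of the 3 replicate means), and over 1483 constructs with more distant promoters it was 0.24 ± 0.05. Promoters from the same stretch of the locus (P023, Tmem177, P025, Tmem37, C1ql2 and Marco) had a mean of 0.47 ± 0.11 over 351 constructs. Those before it had 0.18 ± 0.03 over 1247. The medians over constructs were lower, at 0.17 and 0.007. P025 holds the 250 bases before an annotated Cfap221 start and lies at the Gm33817 boundary. Among promoters of the stretch, median member indices were 1.15 for Tmem37 over 9 members, 0.72 for P023 over 6, 0.24 for C1ql2 over 17, 0.08 for Tmem177 over 38, 0.03 for P025 over 40 and 0.02 for Marco over 47. E294, with Marco as nearest gene, averaged 3.51 ± 0.86 with the Marco promoter over 4 constructs, below its 4.12 over all weak promoters.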

How the data were processed

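The deposited activity of a construct is, per the labels and the authors' column names, a ratio of cDNA to plasmid barcodes for each biological replicate. The Tfcp2l1 mix has fewer plasmid samples than cDNA samples, so the replicates do not each have a plasmid sample of their own. The authors also deposited a boost index on the log2 scale, which was recomputed from the activities within 0.001 for 5065 Tfcp2l1 constructs. Bowtie2 and mm10 come from the submitters' processing notes. Barcode filters and the scale of activity are not given in the sources used here, so depth and counting error are unknown.

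Values were analysed on the log2 scale without a pseudocount, and no construct with a 0 in any replicate entered a test. Boost indices were computed in each replicate against the median construct, zeros included, of at least 10 with the same oriented second fragment. They lie a median of 0.16 below the authors' deposited index. Tests used limma 3.58.1 in R 4.3.3 (lmFit, eBayes), fitted on the whole Tfcp2l1 table with Benjamini-Hochberg adjustment at 0.05. Tables were made with Python 3.11.15, numpy 2.4.6 and pandas 2.3.3. Averages needed 3 promoter fragments, 10 second cCREs, 2 promoter fragments in each class, 3 matched oriented promoters or 5 swapped pairs. A promoter was weak below a basal log2 activity of -2. A construct and its baseline come from the same culture, so replicate numbers pair them. Their deviations from the group means correlated at 0.22, 0.21 and 0.09 in the 3 replicates.

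Named with full values are the 5 highest and 5 lowest members by promoter index, and the 5 highest and 3 lowest oriented members alone and by cCRE index. Also named are the 5 pairs of each kind with the largest change in each direction, and the 3 largest differences by promoter class, orientation and order. The pairs were taken among those called and changed the same way in all 3 replicates, and the differences among those called. Other members were named for their position, their overlap or a contrast seen in their values. The members and lists were chosen with earlier results of these data known. Promoter sequences are RefSeq's (GRCm38.p6). Alternatives were a pseudocount of 0.01, leaving out constructs of activity under 0.02, quantile normalization, the median construct as baseline, medians over partners, stricter minimums, other promoter classes, the replicate as a block, and each replicate left out. A mean that counts each promoter fragment once was added after the data were seen.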

Additional observations from a re-analysis of the deposited data

How the results depend on the processing

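The 8 comparisons and the 55 constructs and members named with full values were recomputed under each alternative listed for them. Of 416 such values of named items, 400 kept their direction and call, 16 lost the call, and none reversed. The pairs had been picked among those called and changed the same way in all 3 replicates. The items by class, orientation and order had also been picked among those called. Leaving out a replicate could therefore not reverse a pair. These counts do not speak for items that were not picked. With the replicate block, 610 pairs of a member with a promoter were called in place of 628 and 5826 cCRE pairs in place of 5971, and the block changed the call of none of the 20 named pairs.

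Calls of members against the promoter alone ranged from 277 to 598 when a replicate was left out. Orientation calls ranged from 6 to 13 when a replicate was left out, and fell from 10 to 5 with medians over promoters. Calls by promoter class rose from 6 to 11 with a pseudocount, to 10 without low constructs and to 14 with classes from the promoter alone. The totals of calls in the other 5 comparisons stayed within 1.5 times the total reported. Calls in 1 direction moved further in places. Lower cCRE pairs went from 2067 to 1250 without replicate 3 and 1296 without replicate 2, lower single cCREs from 36 to 21 without replicate 2, and lower promoter pairs from 302 to 141 with the median baseline. With each promoter fragment counted once, 27 members were called by promoter index in place of 29. The cause of these changes was not tested.

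With no barcode or read numbers per construct, differences between constructs of activity near 0 cannot be separated from counting error, and zeros were most frequent in replicate 1. Orientation, class and order were not tested for members with few matched constructs.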
